A study of Mus musculus with 11 samples.

Results

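Interferon-stimulated genes are switched on when a cell meets interferon. Type I interferons bind a receptor made of the chains Ifnar1 and Ifnar2, and a transcription factor complex that includes Stat2 and Irf9 then binds the interferon-stimulated response element (ISRE) in target promoters. Interferon gamma acts on the gamma-activated site (GAS). The products sense foreign nucleic acid, block the copying of viruses, tag proteins with Isg15 or ADP-ribose, attack the vacuoles of microbes and attract lymphocytes. Alveolar macrophages, the resident phagocytes of the air spaces, are among the cells of the lung that meet inhaled viruses first.

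The genes were 42 named members of this response, taken by symbol from a table of raw read counts for 57180 Ensembl genes, and 41 of them passed the filter on low counts that left 19948 genes. Ifi44, an interferon-inducible protein, was the member that did not pass. RNA came from alveolar macrophages that flow cytometry had isolated out of homogenised lungs of wild-type C57BL/6 pups at postnatal day 7. The exposed pups, 2 libraries from males (HM2 and HM3) and 3 from females (HF1 to HF3), breathed 95% oxygen between postnatal days 1 and 5. The pups kept in normoxia gave 3 libraries from males (NM1 to NM3) and 3 from females (NF1 to NF3). Whether libraries of a group stem from separate pups or from pools is not stated in the labels, so each p-value rests on library-to-library spread that may be technical.

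The libraries held 18087948 to 32579468 counts. Levels are given as CPM, counts scaled to the TMM-adjusted library size, and the floor of 3 counts lay between 0.0880 and 0.160 CPM. Between 33158 and 35530 genes had a count in HF2, HF3, NM3 and NF3, against 26856 to 30173 in the other 7 libraries. All 14 marker genes of alveolar macrophages were measured, and they summed to between 5730 and 8010 CPM in hyperoxia libraries and between 5200 and 8940 CPM in normoxia libraries. Siglecf, Marco and Car4, which help define this cell type, were at 141 CPM or more in every library. HF2 was the highest library for 0 of the 14 genes. It was the lowest for Siglecf (157 CPM), Car4 (467 CPM), Ear2 (484 CPM), Fabp5 (296 CPM), Ctsk (32 CPM), Krt79 (17.3 CPM) and Fabp4 (3.96 CPM). For the other genes of the list another library was lowest, and Marco was at 420 CPM in HF2. Of the 14 genes 2 lay above 0 over both sexes, with a median log2 fold change of -0.28, and 3 fell in edgeR's quasi-likelihood test. These were Ctsk (-1.81 ± 0.25), Fabp4 (-1.53 ± 0.31) and Krt79 (-1.32 ± 0.24, log2 fold change ± SE), with adjusted p of 0.00189, 0.0377 and 0.0144 in that edgeR test. Their part in the levels of the interferon-stimulated genes was not tested.

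Promoters are shown first because the response runs through them. RefSeq promoters on GRCm38.p6, from 250 bases before to 50 bases after each start, were found by symbol for 33 members, while the submitters' notes name mm39 as the build of the counts. The core of the ISRE was searched as GAAANNGAAA and the GAS as TTCNNNGAA on both strands, the GAS being its own reverse complement. A match of one motif may overlap a match of the other. An ISRE core stood in the promoters of 18 of the 33 members (54.5%) and in 1079 of 27025 genes with a promoter (3.99%). A GAS stood in 11 of the 33 (33.3%) and in 2582 of the 27025 (9.55%). Shown are the 3 members with an ISRE core and the most counts (Gbp7, Eif2ak2 and Gbp2), the receptor chain Ifnar1, and Ifit3 and Isg15, which were added after their values were seen. Each promoter runs 5′ to 3′ on its own strand, and capitals mark the matches.

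Gbp7 promoter, chr3:142530086-142530385, plus strand: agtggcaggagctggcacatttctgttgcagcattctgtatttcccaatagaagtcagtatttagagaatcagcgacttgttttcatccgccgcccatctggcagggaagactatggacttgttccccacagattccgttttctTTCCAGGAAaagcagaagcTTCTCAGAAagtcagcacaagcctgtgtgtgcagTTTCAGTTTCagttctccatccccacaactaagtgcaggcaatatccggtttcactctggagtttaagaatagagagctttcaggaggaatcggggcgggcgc
Eif2ak2 promoter, chr17:78882523-78882822, minus strand: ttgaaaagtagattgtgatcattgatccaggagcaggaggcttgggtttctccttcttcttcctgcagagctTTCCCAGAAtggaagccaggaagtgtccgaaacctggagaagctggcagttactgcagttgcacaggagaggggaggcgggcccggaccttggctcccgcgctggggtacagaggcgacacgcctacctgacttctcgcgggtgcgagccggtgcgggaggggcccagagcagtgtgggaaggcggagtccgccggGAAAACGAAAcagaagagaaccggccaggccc
Gbp2 promoter, chr3:142620413-142620712, plus strand: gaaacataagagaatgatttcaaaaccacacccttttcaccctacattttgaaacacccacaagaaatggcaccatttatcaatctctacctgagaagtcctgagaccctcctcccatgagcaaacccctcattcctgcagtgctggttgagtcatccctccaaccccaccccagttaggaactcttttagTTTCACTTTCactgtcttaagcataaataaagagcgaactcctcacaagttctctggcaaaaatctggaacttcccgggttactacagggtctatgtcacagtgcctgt
Ifnar1 promoter, chr16:91484965-91485264, plus strand: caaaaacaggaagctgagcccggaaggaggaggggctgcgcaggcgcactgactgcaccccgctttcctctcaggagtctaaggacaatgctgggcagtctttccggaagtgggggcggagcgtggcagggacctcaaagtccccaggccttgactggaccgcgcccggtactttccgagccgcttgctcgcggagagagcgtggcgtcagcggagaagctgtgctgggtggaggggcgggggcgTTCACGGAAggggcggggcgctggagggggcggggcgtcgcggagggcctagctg
Ifit3 promoter, chr19:34583279-34583578, plus strand: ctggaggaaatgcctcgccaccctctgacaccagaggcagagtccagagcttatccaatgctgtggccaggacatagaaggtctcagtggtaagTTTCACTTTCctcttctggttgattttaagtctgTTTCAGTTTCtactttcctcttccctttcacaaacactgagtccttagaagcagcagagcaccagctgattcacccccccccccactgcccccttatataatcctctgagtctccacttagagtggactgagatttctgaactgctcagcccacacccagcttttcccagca
Isg15 promoter, chr4:156200769-156201068, minus strand: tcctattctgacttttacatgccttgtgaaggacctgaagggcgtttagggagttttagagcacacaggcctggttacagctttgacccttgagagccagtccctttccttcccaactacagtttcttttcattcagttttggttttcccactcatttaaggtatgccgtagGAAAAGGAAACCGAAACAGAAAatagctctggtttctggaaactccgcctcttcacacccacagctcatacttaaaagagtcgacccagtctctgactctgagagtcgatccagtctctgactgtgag

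Gbp7 held 1 ISRE core and 2 GAS matches, and Eif2ak2 held 1 of each. The Ifnar1 window held a GAS match and no ISRE core. Ifit3 had 2 separate ISRE cores, while the 3 cores of Isg15 overlapped in a single run of capitals. No match in the other promoters, such as those of Irf7, Oasl2 and Ifi47, says only that these letters are not in these windows.

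The main comparison set the 5 hyperoxia libraries against the 6 normoxia libraries, as the mean of the differences in males and in females. Of the 41 members tested, 0 passed edgeR's quasi-likelihood test at an adjusted p of 0.05, where 0.707% of all genes did (141 of 19948). DESeq2 called 2 members, Gbp3 and Ifit2, where it called 3.24% of the genes to which it gave an adjusted p. At an unadjusted p under 0.05 there were 9 members, all higher after hyperoxia, or 22.0% of them against 8.13% of all genes. These 9 were Gbp3, Oasl2, Ifit2, Ifit3, Xaf1, Oas3, Ifi27l2a, Irf7 and Irgm1. In all, 32 of 41 members lay above 0 with a median log2 fold change of 0.33, while 45.9% of all genes lay above 0 with a median of -0.03. Less RNA per cell and fewer cells of a type cannot be told apart in such bulk samples.

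Most of this difference rested on a single library. Without HF2 the median of the members was 0.06 (all genes -0.04), 23 of 41 lay above 0, and 0 of 41 passed edgeR's quasi-likelihood test, where 0.322% of genes did. Then 3 members, Gbp3, Ifit2 and Ifi27l2a, had an unadjusted p under 0.05, against 5.80% of all genes. HF2 was the highest of the 11 libraries for 29 of 41 members (70.7%), against 7.48% of all genes. It stood at least 2 times above the next highest library for 13 members (31.7%), against 0.426% of all genes. HF2 was known to stand high for these genes when they were chosen, so its counts are given as a description. The median deviation of the members from their mean log2 CPM was 0.97 in HF2 and between -0.32 and 0.09 in the other 10 libraries. By Dixon's critical values HF2 was a high outlier among the 5 hyperoxia libraries for 17 members, against 1.19% of all genes, and 6.13% of all genes had any outlier there. With DESeq2's size factors HF2 was highest for 26 members, against 5.82% of genes, and with unscaled totals for 33, against 19.7%.

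**Figure D1:**
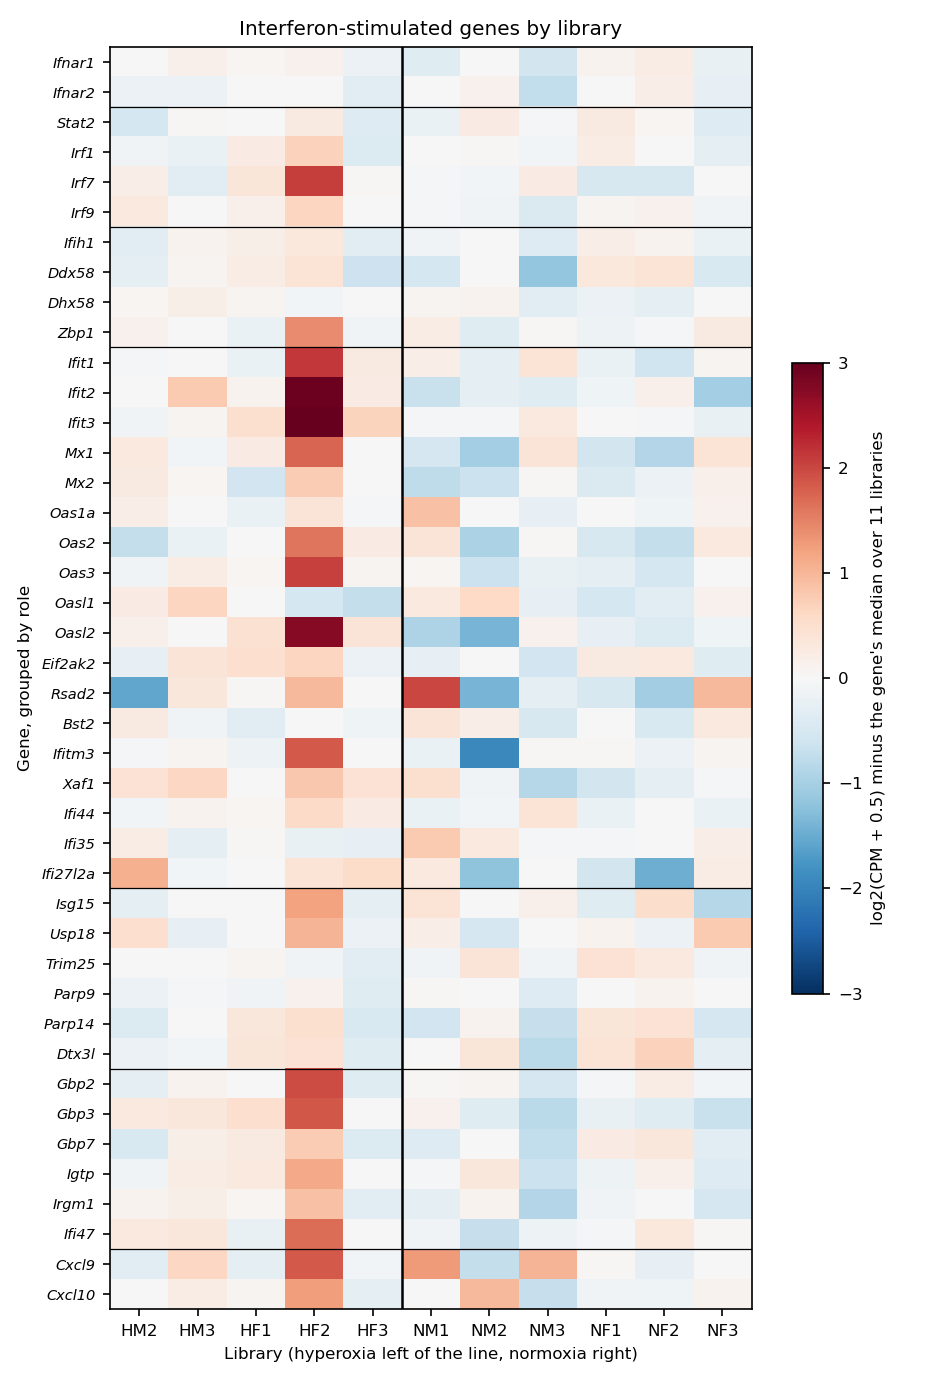
Heat map of all 42 interferon-stimulated genes (rows, grouped by role as separated by lines) in the 11 libraries (columns, hyperoxia left and normoxia right). Colour gives log2(CPM + 0.5) minus the gene's median over the libraries, and the column of HF2 is the darkest red for 13 members by at least 2 times in CPM.

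The receptor chains lay within a narrow range. Ifnar1 stood at 37.1 and 41.5 CPM in HM2 and HM3 and 38.7, 40.5 and 32.6 CPM in HF1 to HF3, against 28.7, 36.6 and 25 CPM in NM1 to NM3 and 40, 43.5 and 31.5 CPM in NF1 to NF3. Ifnar2 stood at 50.3 and 50.2 CPM in HM2 and HM3 and 57.2, 57.9 and 44.8 CPM in HF1 to HF3, against 57.8, 62.7 and 34 CPM in NM1 to NM3 and 57.3, 65.8 and 48.1 CPM in NF1 to NF3. NF2 was the highest library for both chains, and HF2 was 1.1 and 1.08 times the median of the other libraries. Their log2 fold changes over both sexes were 0.17 ± 0.16 and -0.07 ± 0.18 (± SE, adjusted p of 0.936 and 0.998 in edgeR's quasi-likelihood test). Per kb of exon, Ifnar2 with a median level of 17.2 CPM per kb was the second most abundant member after Trim25 with 45.9.

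Among the factors that carry the signal to the genome, Irf7 was the one with a large excess in HF2. Stat2, a part of the factor that binds the ISRE, stood at 16.6 and 24.9 CPM in HM2 and HM3 and 24.2, 29.4 and 18.5 CPM in HF1 to HF3, against 21.1, 29 and 23.5 CPM in NM1 to NM3 and 29.3, 25.2 and 18.5 CPM in NF1 to NF3. Its highest hyperoxia and normoxia libraries, HF2 and NF1, were nearly level, and the log2 fold change was -0.13 ± 0.18 (± SE). Irf9, the DNA-binding part of the same complex, stood at 22.5 and 18.4 CPM in HM2 and HM3 and 20.6, 29.2 and 18.3 CPM in HF1 to HF3, against 17.8, 17 and 13.4 CPM in NM1 to NM3 and 19.6, 20.3 and 17.1 CPM in NF1 to NF3. Irf1, a factor that interferon gamma induces, stood at 28.1 and 26.1 CPM in HM2 and HM3 and 36.2, 49.3 and 22.6 CPM in HF1 to HF3, against 30.2, 31 and 28.4 CPM in NM1 to NM3 and 35.2, 30.6 and 24.8 CPM in NF1 to NF3. For both, HF2 was the highest library and the other hyperoxia libraries overlapped the normoxia ones. Irf7, which amplifies type I interferon production and was picked after its values were seen, stood at 4.57 and 2.99 CPM in HM2 and HM3 and 5.17, 18 and 4.05 CPM in HF1 to HF3, against 3.84, 3.67 and 4.7 CPM in NM1 to NM3 and 2.67, 2.67 and 3.92 CPM in NF1 to NF3. HF2 was 3.49 times the next library, HF1, and the 4 other hyperoxia libraries lay between 2.99 and 5.17 CPM against 2.67 to 4.70 CPM in normoxia. The log2 fold change of Irf7 over both sexes was 0.73 ± 0.32 and became 0.24 ± 0.24 without HF2 (± SE).

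The sensors of foreign RNA showed no member past the test, with log2 fold changes from 0.05 to 0.33 over both sexes. Ifih1, which encodes MDA5, stood at 22.3 and 30.4 CPM in HM2 and HM3 and 31.6, 35.4 and 22.4 CPM in HF1 to HF3, against 26, 28.1 and 21.3 CPM in NM1 to NM3 and 32.2, 30.5 and 24.3 CPM in NF1 to NF3. Ddx58, which encodes RIG-I, stood at 24.2 and 31.7 CPM in HM2 and HM3 and 35, 39.9 and 19.2 CPM in HF1 to HF3, against 20.5, 29.9 and 13.2 CPM in NM1 to NM3 and 37.1, 40.2 and 21.7 CPM in NF1 to NF3. In both the groups overlapped widely, and the lowest library was NM3. Dhx58, their relative LGP2, stood at 14.8 and 16.1 CPM in HM2 and HM3 and 15, 13.4 and 13.9 CPM in HF1 to HF3, against 15, 15.1 and 11 CPM in NM1 to NM3 and 12.4, 11.5 and 14.1 CPM in NF1 to NF3, and HM3 was its highest library. Zbp1, a sensor of Z-form nucleic acids picked after its values were seen, was at 25.1 CPM in HF2. The other hyperoxia libraries held 7.86 to 10 CPM of Zbp1, against 7.00 to 11.1 CPM in normoxia, and its log2 fold change of 0.33 ± 0.26 became -0.05 ± 0.18 without HF2 (± SE).

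The antiviral effectors held the largest ratios. Ifit1, Ifit2 and Ifit3 bind viral RNA or the proteins that translate it. Ifit3 stood at 0.236 and 0.337 CPM in HM2 and HM3 and 0.597, 9.21 and 0.755 CPM in HF1 to HF3, against 0.267, 0.25 and 0.464 CPM in NM1 to NM3 and 0.286, 0.249 and 0.172 CPM in NF1 to NF3. HF2 held 314 counts of Ifit3, against 4 to 22 in every other library, and its level was 12.2 times that of the next library, HF3. Ifit2 stood at 1.66 and 3.22 CPM in HM2 and HM3 and 1.82, 16.1 and 2.06 CPM in HF1 to HF3, against 0.854, 1.25 and 1.19 CPM in NM1 to NM3 and 1.46, 1.92 and 0.56 CPM in NF1 to NF3. HF2 was 5.02 times the next library, HM3, and the groups overlapped, since NF2 with 1.92 CPM lay above HM2 and HF1. Ifit1 stood at 0.236 and 0.262 CPM in HM2 and HM3 and 0.166, 2.79 and 0.412 CPM in HF1 to HF3, against 0.374, 0.125 and 0.516 CPM in NM1 to NM3 and 0.159, 0 and 0.302 CPM in NF1 to NF3. Outside HF2, with 95 counts, no library held more than 12 counts of Ifit1, so differences among those libraries are not resolved at this depth. In the Ifit3 transcripts, 51.2% of 50-base words also occur in Ifit3b, a near copy, so counts may be split between them. Ifit3b itself was at 2.46 CPM in HF2 and at 0.568 CPM or less elsewhere.

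The log2 fold changes over both sexes were 1.84 ± 0.66 for Ifit3, 1.74 ± 0.55 for Ifit2 and 1.22 ± 0.81 for Ifit1 (± SE). In edgeR's quasi-likelihood test their adjusted p were 0.329, 0.250 and 0.836. Without HF2 the values were 0.66 ± 0.66, 0.85 ± 0.39 and 0.24 ± 0.93 (± SE). For Ifit2 the hyperoxia libraries other than HF2 averaged 2.19 CPM and the normoxia libraries 1.21 CPM.

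The oligoadenylate synthetases make the messenger that activates RNase L, and their members parted. Oasl2, a synthetase-like member with a ubiquitin-like end, stood at 1.81 and 1.57 CPM in HM2 and HM3 and 2.32, 13.2 and 2.2 CPM in HF1 to HF3, against 0.587, 0.292 and 1.75 CPM in NM1 to NM3 and 1.24, 1.07 and 1.38 CPM in NF1 to NF3. HF2 was 5.67 times the next library, and the 4 other hyperoxia libraries lay between 1.57 and 2.32 CPM, overlapping the normoxia range only through NM3 at 1.75 CPM. The log2 fold change of Oasl2 was 1.61 ± 0.49, and 0.91 ± 0.43 without HF2 (± SE, adjusted p of 0.199 and 0.871 in edgeR's quasi-likelihood test). Oas3 and Oas2, named after their values were seen, reached 8.89 and 4.14 CPM in HF2, which was 4.17 and 2.77 times their next highest library. Oas1a stood at 15.3 and 13.5 CPM in HM2 and HM3 and 11.5, 17.5 and 13 CPM in HF1 to HF3, against 24.9, 13.3 and 11.1 CPM in NM1 to NM3 and 13.2, 12.2 and 14.7 CPM in NF1 to NF3. NM1, not HF2, was its highest library, and 57.6% of the 50-base words of its transcripts also occur in other genes, mostly Oas1g. For Oasl1, HF2 lay at 2.14 CPM, which was 0.610 times the median of the other libraries, with HM3 the highest at 5.50 CPM.

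Other antiviral effectors gave both kinds of pattern. Mx1, a GTPase that traps viral ribonucleoprotein, stood at 1.66 and 1.16 CPM in HM2 and HM3 and 1.59, 5.43 and 1.27 CPM in HF1 to HF3, against 0.747, 0.375 and 1.81 CPM in NM1 to NM3 and 0.7, 0.462 and 1.85 CPM in NF1 to NF3. HF2 was 2.93 times the next library, NF3, and the log2 fold change of 1.0 ± 0.50 became 0.52 ± 0.50 without it (± SE). Mx2 was low, with 0 to 32 counts a library. Eif2ak2, the kinase PKR that halts translation on double-stranded RNA, stood at 26.4 and 40.8 CPM in HM2 and HM3 and 44.7, 49.3 and 27.8 CPM in HF1 to HF3, against 26.5, 31.3 and 21 CPM in NM1 to NM3 and 37.7, 38.5 and 24.1 CPM in NF1 to NF3. HF2 was its highest library by 1.1 times. Ifitm3, which blocks the entry of viruses from endosomes and was picked after its values were seen, was at 12.1 CPM in HF2, against 2.69 to 3.22 CPM in the other hyperoxia libraries and 0.417 to 3.23 CPM in normoxia. Of the 50-base words of the Ifitm3 transcripts 10% occur in other genes too.

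Several effectors were not highest in HF2. Ifi35, a partner of the Nmi protein, stood at 18.2 and 12.5 CPM in HM2 and HM3 and 15.8, 13.1 and 12.9 CPM in HF1 to HF3, against 27.1, 19.1 and 15 CPM in NM1 to NM3 and 14.7, 15.4 and 17.9 CPM in NF1 to NF3, so that NM1 was highest and HF2 was 0.843 times the median of the others. In its transcripts 10.4% of 50-base words are shared with another gene. Rsad2, which encodes viperin, a radical enzyme that makes a chain-ending nucleotide, was at 4.87 CPM in HF2 and ranged from 0.434 to 2.96 CPM in the other hyperoxia libraries. In normoxia Rsad2 ranged from 0.542 to 10.4 CPM, with NM1 highest. Bst2, the tether that holds budding virus at the cell surface, lay between 5.94 and 9.46 CPM in hyperoxia and 5.37 and 10.2 CPM in normoxia. Xaf1, unlike these, was highest in HF2, at 4.72 CPM against 4.08 CPM in HM3. Ifi27l2a and Xaf1 both had an unadjusted p under 0.05 with all libraries, and HF2 moved their fold changes little. The log2 fold change was 0.87 ± 0.35 for Ifi27l2a, and 0.85 ± 0.39 without HF2, and 0.78 ± 0.30 for Xaf1, and 0.65 ± 0.32 without HF2 (± SE). Without HF2 the unadjusted p of Xaf1 in the same edgeR fit across all genes was 0.0587. Ifi27l2a was highest in HM2, and without HM2 its log2 fold change was 0.52. Ifi27l2a lay between 3.85 and 9.07 CPM in hyperoxia and 1.17 and 5.07 CPM in normoxia, and Xaf1 between 2.49 and 4.72 CPM in hyperoxia and 1.14 and 3.68 CPM in normoxia. Ifi44, which did not pass the filter, had 12 counts in HF2 and 0 to 5 in the other libraries.

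**Figure D2:**
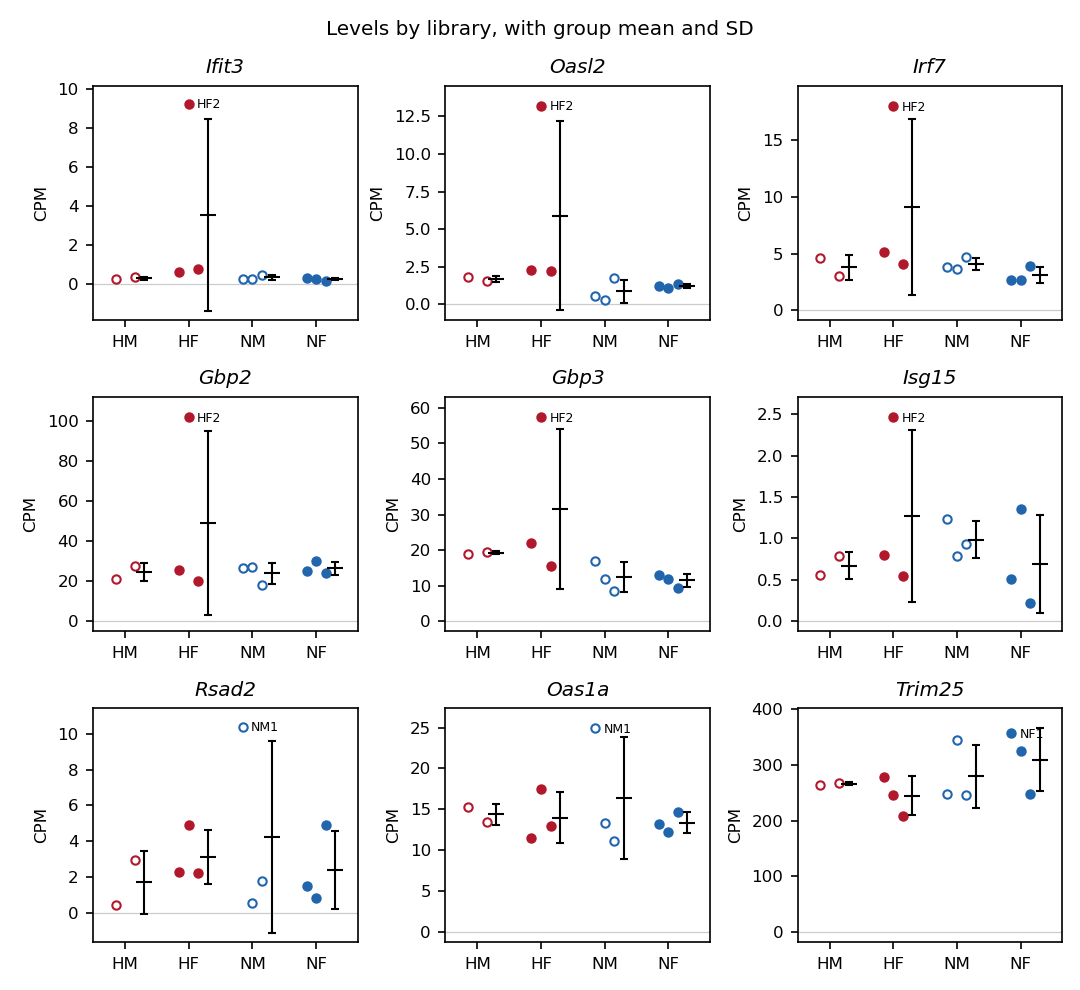
Levels in CPM of 9 members by group (HM, HF, NM, NF), 1 point per library (open for males, filled for females), with the group mean and SD to the right of the points (n = 2 for HM, 3 for the others) and the highest library named. HF2 stands apart for Ifit3, Oasl2, Irf7, Gbp2, Gbp3 and Isg15, while NM1 is highest for Rsad2 and Oas1a and NF1 for Trim25.

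Among the modifiers was Trim25, the member with the highest level, and the group's log2 fold changes ran from -0.21 to 0.47 over both sexes, with 0 of 6 past the test. Trim25, a ubiquitin ligase that acts on RIG-I, stood at 264 and 268 CPM in HM2 and HM3 and 278, 245 and 209 CPM in HF1 to HF3, against 247, 345 and 246 CPM in NM1 to NM3 and 356, 324 and 247 CPM in NF1 to NF3. HF2 lay within the range of the others, and the log2 fold change was -0.21 ± 0.18 (± SE). Dtx3l, a ubiquitin ligase that pairs with Parp9, stood at 63.1 and 67.4 CPM in HM2 and HM3 and 90.9, 95.3 and 54.9 CPM in HF1 to HF3, against 70.8, 90.6 and 40.1 CPM in NM1 to NM3 and 93.6, 114 and 58.3 CPM in NF1 to NF3. Parp14, a mono-ADP-ribosyl transferase, stood at 42 and 55.8 CPM in HM2 and HM3 and 71.1, 78 and 40.7 CPM in HF1 to HF3, against 37.1, 59.7 and 34.5 CPM in NM1 to NM3 and 72.2, 75.1 and 38.9 CPM in NF1 to NF3. NM3 was low for these 2 genes, and so were the female libraries HF3 and NF3, while HF1, HF2, NF1 and NF2 were high. For Parp14 the male library NM1, at 37.1 CPM, lay below NF3 at 38.9 CPM and HF3 at 40.7 CPM, and HM2 was close at 42 CPM. For Dtx3l the male library NM2, at 90.6 CPM, was nearly level with HF1 at 90.9 CPM. Parp9 and Dtx3l lie head to head, and 7.71% and 8.09% of their 50-base words are shared, mostly with each other, so their counts may be partly split. Isg15, the ubiquitin-like protein that gives its name to the tagging step, stood at 0.552 and 0.786 CPM in HM2 and HM3 and 0.796, 2.46 and 0.549 CPM in HF1 to HF3, against 1.23, 0.792 and 0.929 CPM in NM1 to NM3 and 0.509, 1.35 and 0.216 CPM in NF1 to NF3. HF2 was 1.82 times the next library, NF2, and the log2 fold change of Isg15 was 0.16 ± 0.52, and -0.30 ± 0.54 without HF2 (± SE). Usp18, which removes Isg15 from proteins and damps the receptor, was at 1.06 CPM in HF2 and 0.0417 to 0.819 CPM in the other libraries.

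The interferon-inducible GTPases, which coat the vacuoles of microbes, were highest in HF2 for all 6 members. Gbp3 had the smallest p of the 42 genes over both sexes. It stood at 18.9 and 19.5 CPM in HM2 and HM3 and 22, 57.3 and 15.4 CPM in HF1 to HF3, against 17, 11.8 and 8.52 CPM in NM1 to NM3 and 13.1, 11.8 and 9.48 CPM in NF1 to NF3. The 5 hyperoxia libraries lay between 15.4 and 57.3 CPM and the 6 normoxia libraries between 8.52 and 17.0 CPM, so the groups overlapped through HF3 and NM1. The log2 fold change of Gbp3 was 1.04 ± 0.28, and 0.67 ± 0.20 without HF2 (± SE, adjusted p of 0.135 and 0.265 in edgeR's quasi-likelihood test). With HF3 left out it was 1.21 and passed, with an adjusted p of 0.0255 in edgeR's quasi-likelihood test, while DESeq2 gave it an adjusted p of 0.0191 over all libraries.

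Gbp2 stood at 21.3 and 27.8 CPM in HM2 and HM3 and 25.7, 102 and 19.9 CPM in HF1 to HF3, against 26.5, 27.2 and 18 CPM in NM1 to NM3 and 25, 30 and 24.3 CPM in NF1 to NF3. HF2 was 3.42 times the next library, NF2, and without it the log2 fold change of 0.47 ± 0.37 was -0.09 ± 0.18 (± SE). Gbp7 stood at 32.7 and 51.2 CPM in HM2 and HM3 and 54.3, 77.1 and 33.6 CPM in HF1 to HF3, against 34.2, 45 and 26.9 CPM in NM1 to NM3 and 53.1, 57.2 and 35.3 CPM in NF1 to NF3. HF2 was 1.35 times the next library, and the log2 fold changes with and without it were 0.21 ± 0.22 and 0.05 ± 0.22 (± SE). In the Gbp7 transcripts 12.7% of 50-base words are shared with other genes. Igtp, Irgm1 and Ifi47 are immunity-related GTPases, and HF2 was 1.75, 1.64 and 2.90 times their next highest library. Igtp shares 11.8% of its 50-base words, nearly all with Irgm2.

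The chemokines Cxcl9 and Cxcl10 draw T cells through the receptor Cxcr3. Cxcl9 stood at 0.197 and 0.86 CPM in HM2 and HM3 and 0.232, 2.67 and 0.343 CPM in HF1 to HF3, against 1.65, 0.0417 and 1.29 CPM in NM1 to NM3 and 0.413, 0.249 and 0.388 CPM in NF1 to NF3. Cxcl10 stood at 0.473 and 0.636 CPM in HM2 and HM3 and 0.531, 1.85 and 0.309 CPM in HF1 to HF3, against 0.48, 1.42 and 0.103 CPM in NM1 to NM3 and 0.413, 0.391 and 0.56 CPM in NF1 to NF3. HF2 was highest for both but only 1.61 and 1.30 times the next library, which was a normoxia one (NM1 for Cxcl9 and NM2 for Cxcl10). Their log2 fold changes of 0.37 ± 0.75 and 0.35 ± 0.62 turned to -0.59 ± 0.77 and -0.19 ± 0.66 without HF2 (± SE).

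By role, the median ratio of HF2 to the median of the other 10 libraries was 5.59 for the 2 chemokines, 3.17 for the 17 tested antiviral effectors and 3.12 for the 6 GTPases. It was 1.64 for the 4 signalling factors, 1.48 for the 6 modifiers, 1.39 for the 4 sensors and 1.09 for the 2 receptor chains. The 13 members with HF2 at least 2 times above the next library had medians of 0.249 to 25.4 CPM elsewhere. The 12 members in which another library was highest had medians of 1.99 to 266 CPM. For the 18 members with an ISRE core the median ratio was 2.37 (range 1.05 to 33.3), and for the 14 tested members with a promoter and no ISRE core it was 1.64 (range 0.610 to 10.3). The 9 members without a promoter in the table had a median ratio of 2.81. HF2 was at least 2 times above the next library for 6 of the 18, 4 of the 14 and 3 of the 9, against 0.426% of all genes. By that measure the 3 classes were much alike.

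**Figure D3:**
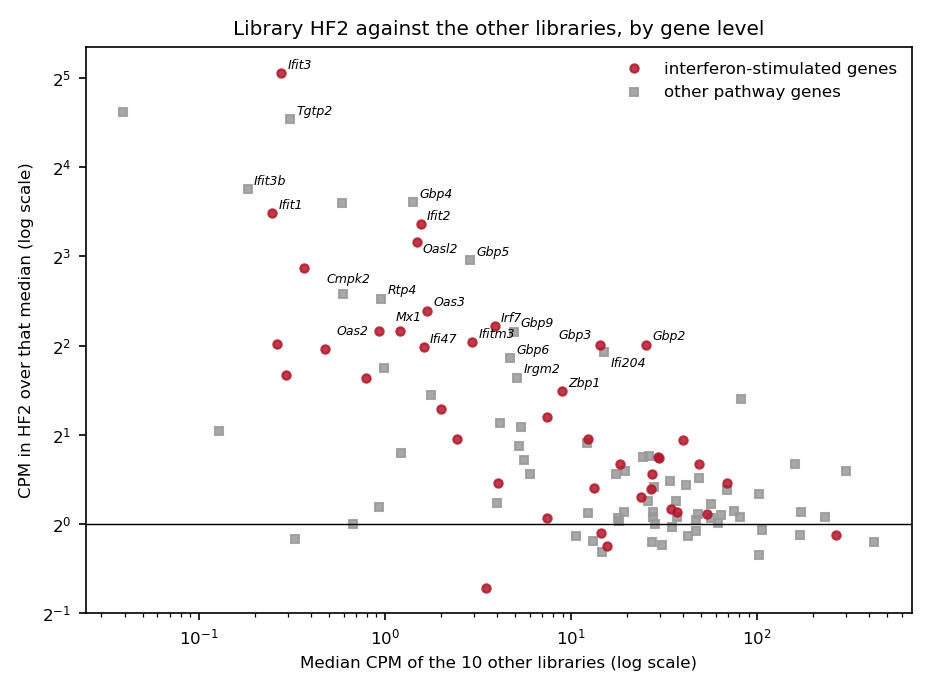
Level in HF2 over the median of the other 10 libraries (log scale) against that median in CPM (log scale), for the 41 tested interferon-stimulated genes (red circles) and 71 other genes of the pathway (grey squares). Genes with HF2 at least 2 times above the next library are named, apart from 1 grey square, and the highest ratio of a red circle is 33.3 for Ifit3.

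No member had all hyperoxia libraries above, or all below, the normoxia libraries, with or without HF2. Of all genes, 1.76% lay wholly above and 0.396% wholly below, and without HF2 the shares were 1.95% and 0.521%.

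**Figure D4:**
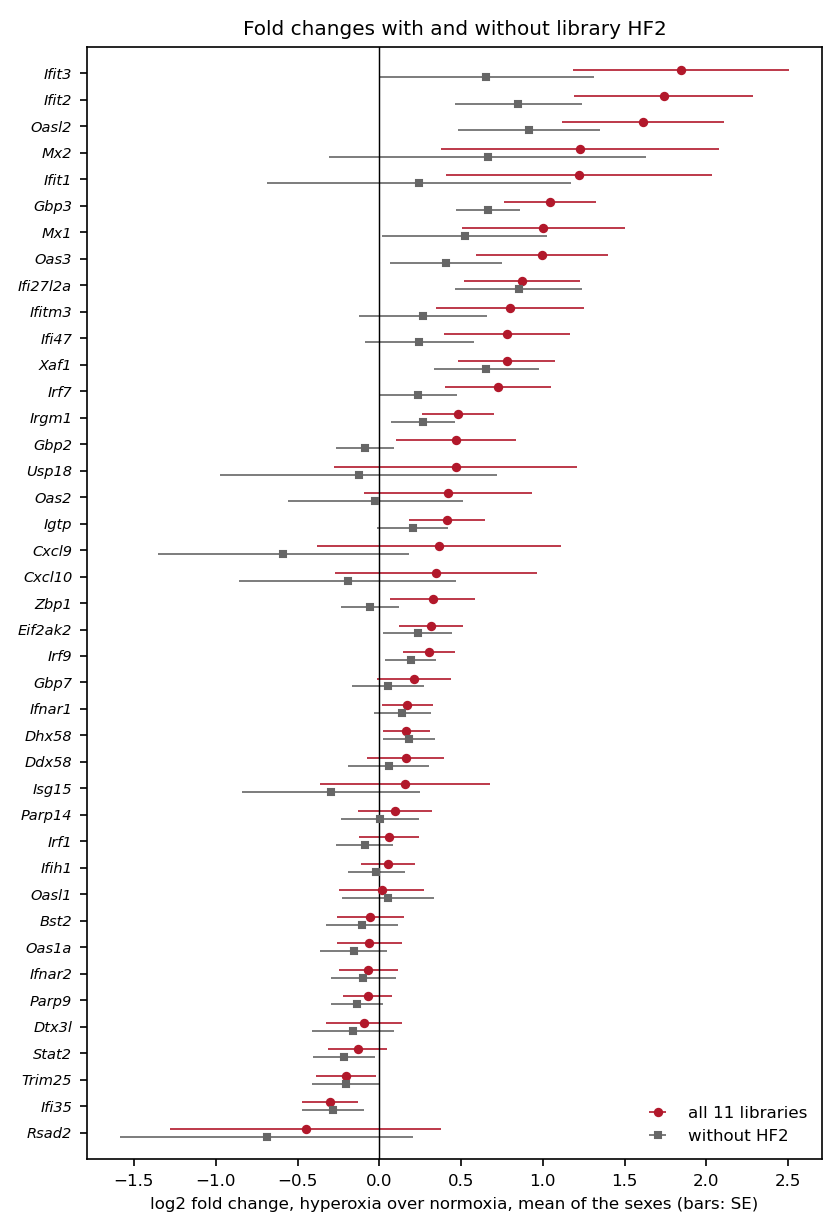
Log2 fold change of hyperoxia over normoxia, averaged over the sexes, for the 41 tested members (bars, SE) with all 11 libraries (red circles) and without HF2 (grey squares). The values with HF2 run up to 1.84 for Ifit3, and without it the highest is 0.91 for Oasl2.

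The sexes were then taken apart. In females 0 of 41 members passed edgeR's quasi-likelihood test, where 0.0401% of genes did, and DESeq2 called 1, Gbp3, where it called 0.698% of genes. An unadjusted p under 0.05 was found in females for 10 members (4.53% of all genes), all higher after hyperoxia. They were Ifit3, Gbp3, Irf7, Oasl2, Ifit2, Oas3, Ifit1, Igtp, Mx1 and Xaf1. The median in females was 0.49 with 31 of 41 above 0, and -0.10 with 16 of 41 above 0 without HF2. Then 1 member, Gbp3, had an unadjusted p under 0.05 (2.55% of all genes), with a log2 fold change of 0.71 ± 0.28 (± SE). In males 0 of 41 members passed the same test, where 0.0401% of genes did, 0 had an unadjusted p under 0.05 (5.50% of all genes), and DESeq2 called 0 (0.611% of genes). The median log2 fold change in males was 0.13, with 25 of 41 above 0. With HF2 left out of the fit, which then estimates its spread from 10 libraries, 0 members passed in males (0.0613% of genes did) and Gbp3 alone had an unadjusted p under 0.05 (5.01% of all genes), with a log2 fold change of 0.62 ± 0.28 (± SE).

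Ifit3 had the smallest p in females. Its log2 fold change there was 3.86 ± 0.89, and 1.50 ± 0.91 without HF2 (± SE, adjusted p of 0.220 and 1 in edgeR's quasi-likelihood test). In males it was -0.18 ± 1.01. The female response minus the male response was 4.04 ± 1.36 for Ifit3 and 1.67 ± 0.66 for Irf7, the 2 members with an unadjusted p under 0.05 (1.67% of all genes). Both had an adjusted p of 1 in edgeR's quasi-likelihood test, and 0 of 41 members passed this interaction in edgeR or DESeq2, where edgeR called 0% and DESeq2 0.0151% of all genes. Without HF2, 0 members had an unadjusted p under 0.05 in the interaction (1.42% of all genes).

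Females were also compared with males at the same oxygen level. After hyperoxia 0 of 41 members passed in edgeR's quasi-likelihood test or DESeq2, where edgeR called 0.0251% and DESeq2 0.163% of genes, and 5 had an unadjusted p under 0.05 (1.73% of all genes). Ifit3 (3.60 ± 1.04), Oasl2 (1.80 ± 0.75), Oas2 (1.77 ± 0.80) and Irf7 (1.27 ± 0.50) were higher in females and Oasl1 (-0.98 ± 0.38) lower (log2 fold change ± SE). Without HF2, 0 of the 41 passed (0.0256% of genes did) and 0 had an unadjusted p under 0.05 (1.06% of all genes). Oasl1 kept a log2 fold change of -0.90 ± 0.44 there (± SE). The median of the members was 0.39 with HF2 and -0.07 without it. In normoxia 0 of 41 members passed either tool, where edgeR called 0.0251% and DESeq2 0.0563% of genes, 0 had an unadjusted p under 0.05 (3.63% of all genes), and the median was 0.04. With HF2 left out of the fit these counts stayed at 0, where 0.0256% of genes passed and 3.08% had an unadjusted p under 0.05.

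Of 82 further genes of the pathway, 71 were tested over both sexes, and 1 rose and 0 fell in edgeR's quasi-likelihood test, where 0.707% of all genes passed. Their median log2 fold change was 0.13 with 47 of 71 above 0, and 0.02 with 39 above 0 without HF2. The gene that rose was Lgals9, a galectin, with a log2 fold change of 0.91 ± 0.20 (± SE, adjusted p of 0.0403 in edgeR's quasi-likelihood test). Without HF2 it was 0.84 ± 0.21 and did not pass, with an adjusted p of 0.145 in the same edgeR test. Lgals9 stood at 40.0, 40.5, 33.5, 40.7 and 28.2 CPM in HM2, HM3 and HF1 to HF3, against 24.2, 19.6 and 10.2 CPM in NM1 to NM3 and 24.3, 22.7 and 17.7 CPM in NF1 to NF3, so the groups did not overlap, as for 1.76% of all genes in this direction.

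HF2 was the highest library for 31 of the 71 genes (43.7%), against 7.48% of all genes. It was at least 2 times above the next library for 11, against 0.426% of all genes. Among these, the GTPases Gbp4 at 17.3 CPM, Gbp5 at 22.3 CPM and Tgtp2 at 7.25 CPM were 6.59, 4.05 and 9.18 times their next library. All 9 other GTPases of the list lay above 0 over both sexes, with a median log2 fold change of 0.57, and 6 of 9 did so without HF2, with a median of 0.07. The 10 interferon genes themselves did not pass the filter. Their counts summed to 0 to 38 in a library, 23 in HF2 and 38 in NM3, and no single interferon gene exceeded 16 counts.

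Marker genes of other cells were read in the same libraries. The list of 8 interstitial macrophage genes summed to 122 CPM in HF2. It summed to 31.4 to 57.6 CPM in the other hyperoxia libraries and 20.7 to 43.8 CPM in normoxia. Of these 8 genes, which share Cx3cr1 with the monocyte list, HF2 was highest for 8, against 7.48% of all genes. None of these was at 0 in HF2, and the complement genes C1qa, C1qb and C1qc were at 21.7, 26.2 and 23.2 CPM there. Of 11 monocyte genes, HF2 was highest for 9, against 7.48% of all genes, and NF1 was highest for Fn1 and Ace. The 11 genes summed to 2400 CPM in HF2, against 1240 to 2420 CPM in the other hyperoxia libraries and 666 to 2480 CPM in normoxia. That sum was mostly Fn1, at 2090 CPM in HF2 and 2280 CPM in NF1, so it says little about the other genes of the list. Ly6c2, a defining marker of classical monocytes, was at 5.72 CPM in HF2 and at 1.1 CPM or less in every other library. Ccr2 and Plac8 were at 63.6 and 18.4 CPM in HF2, against at most 49.4 and 10 CPM elsewhere. The 8 genes of plasmacytoid dendritic cells, a main source of type I interferon, summed to 74.6 to 110 CPM in hyperoxia and 61.9 to 126 CPM in normoxia. Most of it was Runx2 and Tcf4, at 77.2 and 30 CPM in HF2 and 102 and 20.2 CPM in NF2. The sum therefore says little about the other genes of that list. HF2 was highest for 1 of the 8, and Siglech was at 0.264 CPM in HF2. HF2 was highest for 1 of 7 conventional dendritic cell genes and for 0 genes of neutrophils, T and NK cells, B cells, epithelium, endothelium, mesenchyme or erythroid cells. Ly6g, a defining neutrophil marker, was at 0 in every library. The part of these cells in the level of the members in HF2 was not tested. HF3, NM3 and NF3, which like HF2 had at least 33158 genes with a count, had median member deviations of -0.14, -0.32 and -0.14.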

How the data were processed

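RNA of sorted alveolar macrophages was measured in 11 libraries. The authors deposited raw read counts per Ensembl gene, not normalized, from SMART-Seq libraries for small inputs in which the first 8 nucleotides of a read were called unique molecular identifiers, per the labels' protocols. The build mm39, the aligner STAR 2.7.9, the quantifier Salmon 1.10.1, the trimmer Trim Galore 0.6.7 and DESeq2 1.42 under R 4.3.2 are named in the submitters' processing notes. Which tool counted, with which annotation, with or without strand, and whether the identifiers were collapsed is not given in the sources used here, so reads of overlapping or near-identical genes may be split.

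Symbols were found for 51884 of 57180 identifiers (90.7%). Counts were analysed with R 4.3.3 and edgeR 4.0.16: filtering by expression (19948 genes kept, minimum count 10, minimum total 15), TMM scaling, and a robust quasi-likelihood fit with 1 mean for each of 4 groups of oxygen and sex. Contrasts set hyperoxia against normoxia over both sexes, in females and in males, the difference between those responses, and females against males at each oxygen level. Benjamini-Hochberg adjustment ran over all genes tested, with a threshold of 0.05. Levels per kb used exon lengths of GENCODE M21, and intervals between libraries rest on SD or SE, while the floor of 3 counts covers counting error only. The most alike libraries of 1 group (NF1 and NF2) differed by a chi-square per gene of 18.7, so no library of a group was a copy of another. Each library was counted once, and this check does not show whether libraries stem from separate pups.

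Members and lists were chosen with earlier results of these data known. Values in every library are given for any member past a test, the 3 members of each role with most counts, the 4 with the smallest p over both sexes, and Isg15, Ifit1, Mx1 and Cxcl10. Other members named with values were chosen after seeing them. Alternatives were DESeq2 1.42.0 as scaling or as test, no filter, a filter of 30 counts in 5 libraries, a replicate block, additive terms, each library left out, and HF2, HF3, NM3 and NF3 left out together. One gene of the wider pathway list is counted there but not reported here by name.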

Additional observations from a re-analysis of the deposited data

Results flagged for a closer look

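Single libraries standing apart within the 5 hyperoxia or the 6 normoxia libraries were sought with Dixon's critical values, which chance alone exceeds in about 5% of groups. HF2 was high among the hyperoxia libraries for 17 of 41 members, while it was so for 1.19% of all genes. HF2 was already known to stand high for these genes when they were chosen, so this count describes them and is no independent test. Among antiviral effectors its level was 9.21 CPM for Ifit3, 16.1 CPM for Ifit2, 2.79 CPM for Ifit1, 13.2 CPM for Oasl2, 8.89 CPM for Oas3, 4.14 CPM for Oas2, 5.43 CPM for Mx1 and 12.1 CPM for Ifitm3. Among GTPases it was 102 CPM for Gbp2, 57.3 CPM for Gbp3, 17 CPM for Igtp and 6.4 CPM for Ifi47. It was also 18 CPM for Irf7, 25.1 CPM for Zbp1, 2.46 CPM for Isg15, 2.67 CPM for Cxcl9 and 1.85 CPM for Cxcl10. No other hyperoxia library was set apart for any of the 41 members, and 6.13% of all genes had some library set apart in hyperoxia.

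In normoxia 5 of 41 members had a library set apart, a share close to the 11.1% of all genes. NM1 was high for Ifi35 at 27.1 CPM and for Oas1a at 24.9 CPM. NM2 was high for Cxcl10 at 1.42 CPM and low for Ifitm3 at 0.417 CPM. NM3 was low for Parp9 at 26.6 CPM.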

How the results depend on the processing

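The count of members past an adjusted p of 0.05 was 0 in each of the 6 contrasts in edgeR's quasi-likelihood test. Over both sexes it was 3 with no filter on low counts (Gbp3, Ifit2 and Oasl2), where 302 of 47573 genes passed. With DESeq2 it was 2 (Gbp3 and Ifit2), where 446 of 13746 genes passed. It was 0 to 1 with each library left out in turn, where 36 to 195 genes passed, the 1 being Gbp3 without HF3. In females it was 5 with no filter (Ifit3, Gbp3, Ifit2, Oasl2 and Irf7), where 96 of 47573 genes passed. With DESeq2 it was 1 in females (Gbp3), where 96 of 13746 genes passed. Between females and males in hyperoxia it was 1 with no filter (Ifit3), where 40 of 47573 genes passed. Under the other alternatives that kept at least 2 libraries in each group it was 0 in each contrast fitted. The additive terms fitted only the contrast over both sexes. The cause of these gains was not tested. Over all genes the count over both sexes, 141 as reported, was 302 with no filter, 308 with the stricter filter, 446 with DESeq2, 256 with the replicate block, 23 without HF2, HF3, NM3 and NF3 together, and 36 (without HM3) to 195 (without NM2) with each library left out.

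The median log2 fold change of the members in females, 0.49 as reported, was 0.06 without those 4 libraries, where HF1 is the only hyperoxia female and takes its spread from the other groups. It ran from -0.10 (without HF2) to 0.73 (without HF3) with each library left out. The median over both sexes, 0.33 as reported, was 0.09 without the 4 libraries and ran from 0.06 (without HF2) to 0.47 (without HF1). Over both sexes 17 of 41 members changed the sign of their log2 fold change with some library left out. The lowest value came without HF2 for 7 of them, namely Zbp1 (-0.05 to 0.47), Oas2 (-0.02 to 0.73), Isg15 (-0.30 to 0.58), Gbp2 (-0.09 to 0.66), Cxcl9 (-0.59 to 0.73), Cxcl10 (-0.19 to 0.95) and Irf1 (-0.09 to 0.18). It came without another library for 10, namely Stat2 (HM3, -0.29 to 0.01), Rsad2 (HM3, -1.42 to 0.43), Ifih1 (HM3, -0.06 to 0.17), Usp18 (HM2, -0.15 to 0.86), Oasl1 (HF1, -0.13 to 0.14), Ifnar2 (NM3, -0.19 to 0.02), Bst2 (NM3, -0.18 to 0.05), Dtx3l (NM3, -0.23 to 0.05), Oas1a (NM3, -0.19 to 0.13) and Parp14 (NF3, -0.03 to 0.24). Without the 4 libraries Isg15 was -0.40, Gbp2 -0.11, Cxcl9 -0.58 and Cxcl10 -0.19.

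Nothing in the labels says whether libraries with the same replicate number belong together. Deviations of same-numbered libraries correlated at -0.24 to 0.55 (median 0.05), with 6 of 15 pairs over 0.1. Those of differently numbered libraries correlated at -0.62 to 0.55 (median -0.015), with 12 of 30 pairs over 0.1. These values do not settle whether the numbers pair the libraries. With the replicate block 0 members passed in each contrast. Depth limits members such as Ifit1, Mx2 and Ifi44, which had libraries at or under the floor of 3 counts.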
